A study of Mus musculus with 2 samples.

Results

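The 10 genes Gzma, Gzmb, Gzmc, Gzmd, Gzme, Gzmf, Gzmg, Gzmk, Gzmm and Prf1 encode the granzymes and perforin, the proteins that killer lymphocytes release to destroy other cells. They were taken by name from the 32285 genes counted in tumours of Hepa1-6, a mouse hepatoma cell line. One library came from tumours of mice given CD147-LYTACs (lysosome-targeting chimaeras against CD147, the product of Bsg) and the other from control tumours. The dose was 40 mg/kg, repeated every 3 days up to 4 doses, and tumours were collected on day 12; the labels name both an intraperitoneal and an intravenous route, and give neither a control agent nor the number of tumours pooled. CD45-negative and CD45-positive cells were sorted and recombined at 1 to 3, so shares of cells among all cells partly reflect that mixture.

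Granzymes are serine proteases stored in cytotoxic granules together with perforin, which assembles into pores in the membrane of a target cell and lets the granzymes in. Granzyme B cuts after aspartate and activates caspases and Bid. Granzymes A and K cut after lysine or arginine, granzyme M after methionine or leucine, and the mouse granzymes C to G are encoded beside granzyme B and are known mainly from strongly activated cytotoxic T cells.

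The CD147-LYTACs library held 9219 barcodes with 149812326 UMIs (unique molecular identifiers, 1 per captured RNA molecule) and the control library 8150 barcodes with 143495332 UMIs. After filters on UMIs, genes, mitochondrial share and doublets, 7641 and 6689 cells remained, and 24 barcode sequences occurred in both libraries. Lymphocytes were gated on markers that include none of the 10 genes. CD8 T cells numbered 1654 in the CD147-LYTACs library and 2160 in the control library, CD4 T cells without Foxp3 168 and 255, Foxp3-positive T cells 62 and 83, and natural killer (NK) cells 58 and 57. Levels are UMIs summed over a gate and given per 1000000 UMIs of that gate (CPM). Marker checks followed the gate names: Eomes stood at 413 and 444 CPM in NK cells, and Il2ra at 1353 and 919 CPM in Foxp3-positive T cells. Neutrophils, 1154 against 136 cells, were the gate whose size differed most between the libraries. With 1 library per group no test between groups was possible, and all intervals below are 95% intervals of counting error.

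Gene positions set the 10 genes into 4 places on the mouse genome build GRCm38. Gzmb, Gzmc, Gzmd, Gzme, Gzmf and Gzmg lie with Gzmn on the minus strand of chromosome 14 within 144.635 kb (chr14:56117626-56262260). Gzma (chr13:113093825-113100981) and Gzmk (chr13:113171608-113225908) are both on the minus strand of chromosome 13. On the plus strand of chromosome 10 lie Prf1 (chr10:61297833-61304680) and, apart from it, Gzmm (chr10:79689020-79695261), which is 9.229 kb from Bsg. Gzmk overlaps Esm1, and Gzmf overlaps Gm4022, each on the opposite strand, and the sources used here do not state whether counting used strand. In CD8 T cells Esm1 had 44 UMIs in the CD147-LYTACs library and 98 in the control library, and Gm4022 had 15 and 35.

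The 200 bases before the transcription start are shown for the chromosome 14 members and for Gzma, on chromosome 13. Sequences are from RefSeq on GRCm38.p6, read 5′ to 3′ on the gene's own strand, and all 10 members had one. Capitals mark exact matches, on either strand, to the RUNX motif (TGTGGT, or ACCACA on the other strand), the AP-1 motif (TGANTCA) or the cyclic AMP response element (CRE, TGACGTCA); no marked matches overlap.
Gzmb, minus strand, chr14:56262335-56262534: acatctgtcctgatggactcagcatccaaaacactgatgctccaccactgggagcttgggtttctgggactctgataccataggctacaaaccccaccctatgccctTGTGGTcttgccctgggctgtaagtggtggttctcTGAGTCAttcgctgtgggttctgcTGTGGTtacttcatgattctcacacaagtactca
Gzmc, minus strand, chr14:56234658-56234857: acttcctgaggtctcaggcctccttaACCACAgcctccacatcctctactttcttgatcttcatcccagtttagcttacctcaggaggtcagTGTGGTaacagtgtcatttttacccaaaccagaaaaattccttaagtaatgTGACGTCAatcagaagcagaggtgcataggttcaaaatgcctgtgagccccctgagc
Gzmd, minus strand, chr14:56132594-56132793: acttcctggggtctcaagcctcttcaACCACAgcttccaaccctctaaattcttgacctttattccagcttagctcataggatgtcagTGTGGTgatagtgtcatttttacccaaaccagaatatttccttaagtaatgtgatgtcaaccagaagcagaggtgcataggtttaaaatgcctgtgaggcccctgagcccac
Gzme, minus strand, chr14:56120626-56120825: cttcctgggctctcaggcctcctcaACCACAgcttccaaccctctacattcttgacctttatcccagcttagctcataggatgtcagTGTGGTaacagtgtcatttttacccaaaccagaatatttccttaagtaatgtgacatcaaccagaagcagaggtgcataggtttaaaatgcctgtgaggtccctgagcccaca
Gzmf, minus strand, chr14:56211408-56211607: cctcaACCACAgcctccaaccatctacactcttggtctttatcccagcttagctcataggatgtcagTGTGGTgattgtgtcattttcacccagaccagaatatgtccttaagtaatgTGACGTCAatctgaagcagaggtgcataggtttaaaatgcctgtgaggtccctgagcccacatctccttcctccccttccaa
Gzmg, minus strand, chr14:56159580-56159779: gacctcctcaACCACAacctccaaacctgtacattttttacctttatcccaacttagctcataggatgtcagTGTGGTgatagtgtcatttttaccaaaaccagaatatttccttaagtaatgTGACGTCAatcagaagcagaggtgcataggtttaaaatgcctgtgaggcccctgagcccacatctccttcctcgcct
Gzma, minus strand, chr13:113100982-113101181: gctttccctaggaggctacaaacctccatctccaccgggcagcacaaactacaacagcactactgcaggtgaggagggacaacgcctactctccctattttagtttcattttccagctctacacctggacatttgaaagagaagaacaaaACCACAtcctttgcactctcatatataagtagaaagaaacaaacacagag
The windows of Gzmc, Gzmd, Gzme, Gzmf and Gzmg each held a pair of RUNX matches in the same order, ACCACA before TGTGGT. The exact CRE stood in the windows of Gzmc, Gzmf and Gzmg and not in those of Gzmd and Gzme. These 5 windows were 76.0% to 94.5% identical in pairwise alignment, with Gzmd and Gzme the closest pair. The window of Gzmb held an AP-1 match between 2 RUNX matches, and those of Gzma and Prf1 held 1 RUNX match each. The windows of Gzmk and Gzmm held no match. Among 32851 mouse promoter windows of the same length, 11.2% held the RUNX motif, 5.48% the AP-1 motif and 1.47% the CRE. The ETS motif (CCGGAAGT), the T-box motif (AGGTGTGA) and the box TATAAA, searched in the same way, were not found in any of the 10 members and occurred in 2.68%, 0.907% and 9.96% of all windows. A match is a run of letters only.

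The near-identity of the cluster also bears on the counts. Of the 60-base pieces of the transcript, 14.6% in Gzmd, 12.6% in Gzme, 3.95% in Gzmf, 14.0% in Gzmg and 1.44% in Gzmc occurred in another granzyme transcript, and none in Gzma, Gzmb, Gzmk, Gzmm or Prf1. In the last 400 bases the shares were 6.74% for Gzmd, 4.11% for Gzme, 6.45% for Gzmf and 12.3% for Gzmg, and 0 for Gzmc. Counts of Gzmd, Gzme, Gzmf and Gzmg are therefore uncertain against one another. Levels are given as CPM of the gate; because a UMI stands for a molecule, they were not divided by transcript length, and the capture of different transcripts may differ.

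Each lymphocyte type carried its own set of these genes in both libraries. CD8 T cells held all 10, led by Gzmb at 627 CPM in the CD147-LYTACs library and 499 CPM in the control library. NK cells were dominated by Gzma, with 3814 and 4486 CPM, or 80.0% and 76.5% of all their granzyme and perforin UMIs. Foxp3-positive T cells held almost only Gzmb, which made up 80.0% and 94.2% of their member UMIs. In CD4 T cells the leading member was Gzmc, with 93.7 and 262 CPM. Summed over the 10 genes the level was 4765 and 5861 CPM in NK cells, 1536 and 1320 CPM in CD8 T cells, 438 and 254 CPM in Foxp3-positive T cells and 330 and 408 CPM in CD4 T cells.

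**Figure D1:**
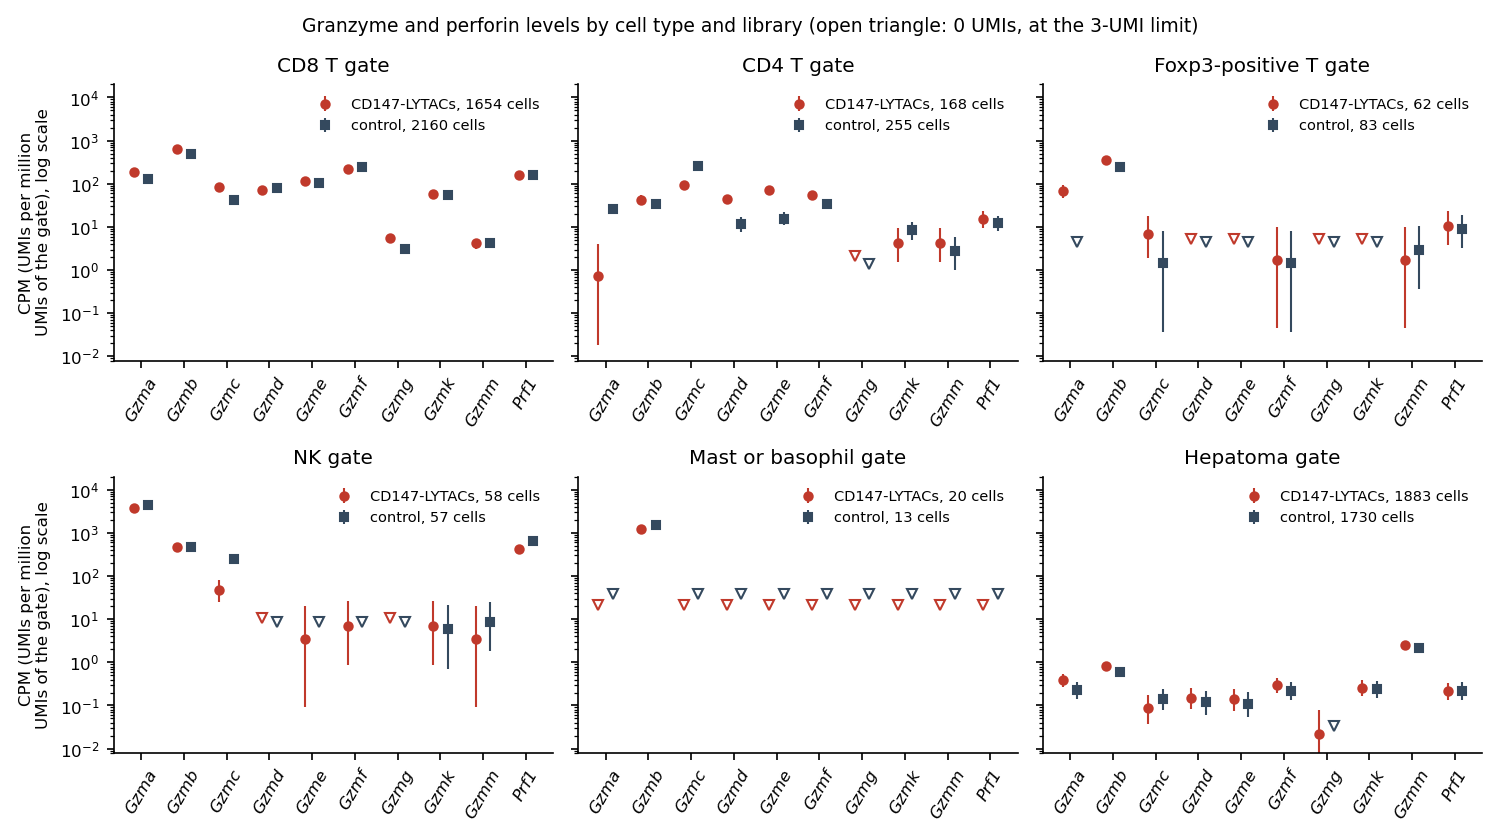
Level of each gene in 6 gates, in CPM on a log scale with 95% Poisson intervals, CD147-LYTACs (red circles) left of control (blue squares). Gzma leads in NK cells, Gzmb in CD8 T, Foxp3-positive T and mast cells, and in the hepatoma gate only Gzmm exceeds 2 CPM.

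Ordered by gate, Gzmb was highest in the mast or basophil gate (1242 and 1485 CPM), followed by CD8 T, NK and Foxp3-positive T cells. The intervals of CD8 T and NK cells did not overlap in the CD147-LYTACs library (614 to 640 CPM against 384 to 546 CPM) and overlapped in the control library (489 to 509 CPM against 411 to 561 CPM). CD4 T cells came next with 42.9 and 34.5 CPM. Macrophages or monocytes had 6.61 and 0.804 CPM, neutrophils 2.44 and 2.30 CPM and hepatoma cells 0.835 and 0.600 CPM. Prf1 ran from NK cells (424 and 633 CPM) through CD8 T cells (163 and 163 CPM) to CD4 T cells (15.02 and 12.41 CPM) and Foxp3-positive T cells (10.5 and 8.82 CPM), and the intervals of the last 2 overlapped. Gzmk was a gene of CD8 T cells, at 57.2 and 56.3 CPM there, against 7.12 and 5.84 CPM in NK cells, where it rested on 2 UMIs in each library.

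In CD8 T cells, the granzymes differed from one another in how the CD147-LYTACs library stood against the control library, while perforin was level. Gzmb had 9087 UMIs in the CD147-LYTACs library and 8989 in control cells, a log2 ratio of CPM of 0.33 (interval 0.29 to 0.37). Prf1 had 2364 and 2931 UMIs, a log2 ratio of 0.00 (-0.07 to 0.08). Perforin RNA made up the same share of CD8 UMIs in both libraries, and granzyme B RNA a larger share in the treated library. Gzma had 2739 and 2302 UMIs and a log2 ratio of 0.57 (0.48 to 0.65), just under 1.5-fold and past it under 3 of the alternative settings. Gzmk, its neighbour on chromosome 13, had 829 and 1015 UMIs and a log2 ratio of 0.02 (-0.11 to 0.16). The intervals of these 2 proteases of like specificity did not overlap. Gzmm was scarce, with 60 and 76 UMIs and a log2 ratio of -0.03 (-0.54 to 0.48).

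Of the chromosome 14 genes in CD8 T cells, Gzmc was 2.0-fold higher in the CD147-LYTACs library, at 84.0 CPM against 41.9 CPM in control cells (log2 ratio 1.00, 0.87 to 1.14). Gzmg was 1.77-fold higher at a low level, 5.59 against 3.16 CPM (0.31 to 1.34 on the log2 scale), and at 0.38 (-0.17 to 0.93) under a stricter gate. Gzmd, at 71.8 and 81.1 CPM, had a log2 ratio of -0.18, Gzme, at 114 and 105 CPM, one of 0.11, and Gzmf, at 221 and 239 CPM, one of -0.12. Thus 2 of 10 members, Gzmc and Gzmg, were past 1.5-fold with an interval excluding no difference, both higher, and none was lower. Among the 10101 genes with at least 100 UMIs in the gate, 2.37% were past that threshold higher and 1.09% lower. Over the 10 members the median log2 ratio was 0.07, beside -0.03 over all measured genes.

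**Figure D2:**
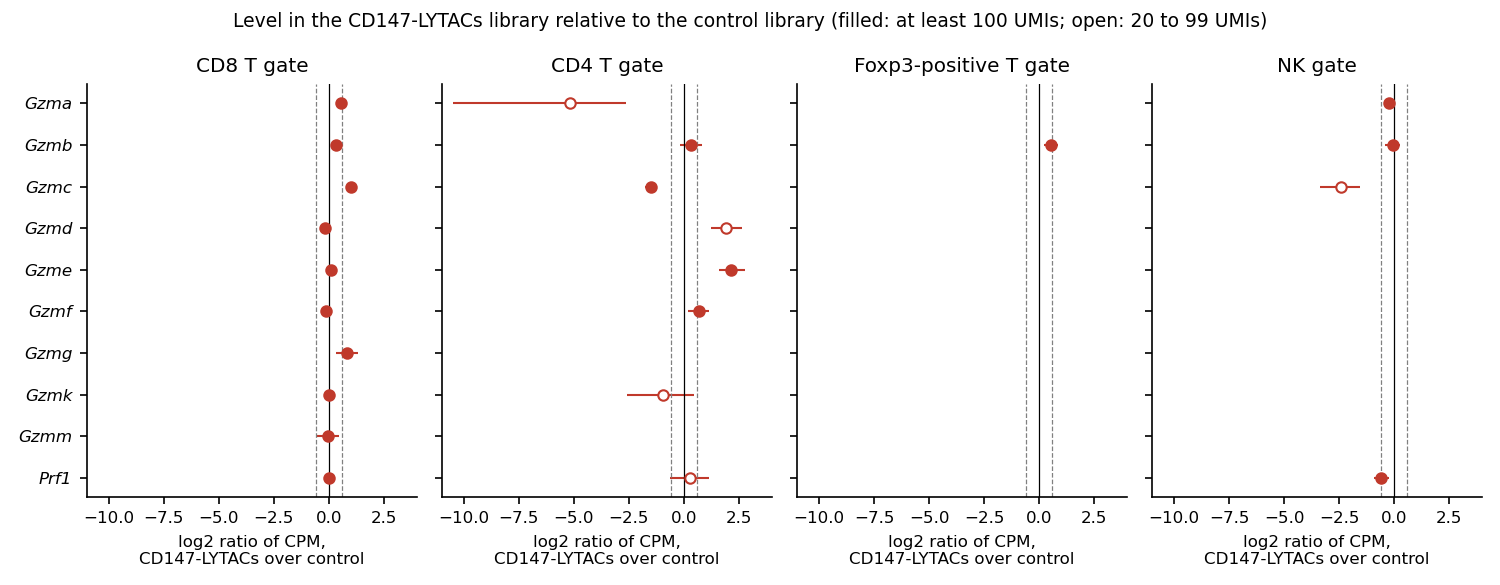
Log2 ratio of CPM, CD147-LYTACs over control, with its counting interval, for each gene in 4 lymphocyte gates; dashed lines mark 1.5-fold. Members with 100 UMIs or more over both libraries are filled, those with fewer are open, and those too sparse for a ratio are left out. Gzmc lies to the right in CD8 T cells and to the left in CD4 T and NK cells.

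How many cells carried the UMIs differed greatly between members. At least 1 UMI of Gzmb was found in 70.7% (68.5 to 72.9) of CD8 T cells in the CD147-LYTACs library and 65.0% (62.9 to 67.0) in the control library, exact Clopper-Pearson intervals. Prf1 was found in 53.5% and 51.0% and Gzmk in 28.9% and 26.9%. Gzma was found in 9.31% and 9.63%, Gzmc in 9.37% and 8.89%, and Gzmf in 10.6% and 11.8%. The hepatoma gate, which should lack these RNAs, had Gzmb in 3.93% and 3.06% of its cells and Gzma in 1.49% and 1.21%, at median depths of 44453 and 48050.5 UMIs a cell, against 6866.5 and 6834.5 in CD8 T cells. Thinned to 1000 UMIs a cell, Gzmb was found in 34.8% of CD8 T cells in the CD147-LYTACs library and 29.3% in the control library, and in 0.160% and 0% of hepatoma cells. So the Gzmb share was higher in the treated library at equal depth, and the shares for Prf1 (13.5% and 13.1%), Gzma (4.42% and 5.14%) and Gzmc (2.30% and 2.08%) had overlapping intervals.

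The 1% of CD8 T cells richest in Gzmc held 76.8% of its UMIs in the CD147-LYTACs library and 59.6% in the control library. For Gzma these shares were 63.3% and 53.0%, whereas for Gzmb they were 13.7% and 12.3% and for Prf1 10.96% and 14.91%. The single richest cell held 161 Gzmc UMIs in the CD147-LYTACs library and 127 in the control library. Without the 1% of cells richest in each gene, a choice made on the same counts, the log2 ratio of Gzmc was 0.20 (-0.04 to 0.44), that of Gzma 0.21 (0.08 to 0.33) and that of Gzmb 0.31 (0.26 to 0.35), and no member was past 1.5-fold; no Gzmg UMI was left in the CD147-LYTACs library.

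**Figure D3:**
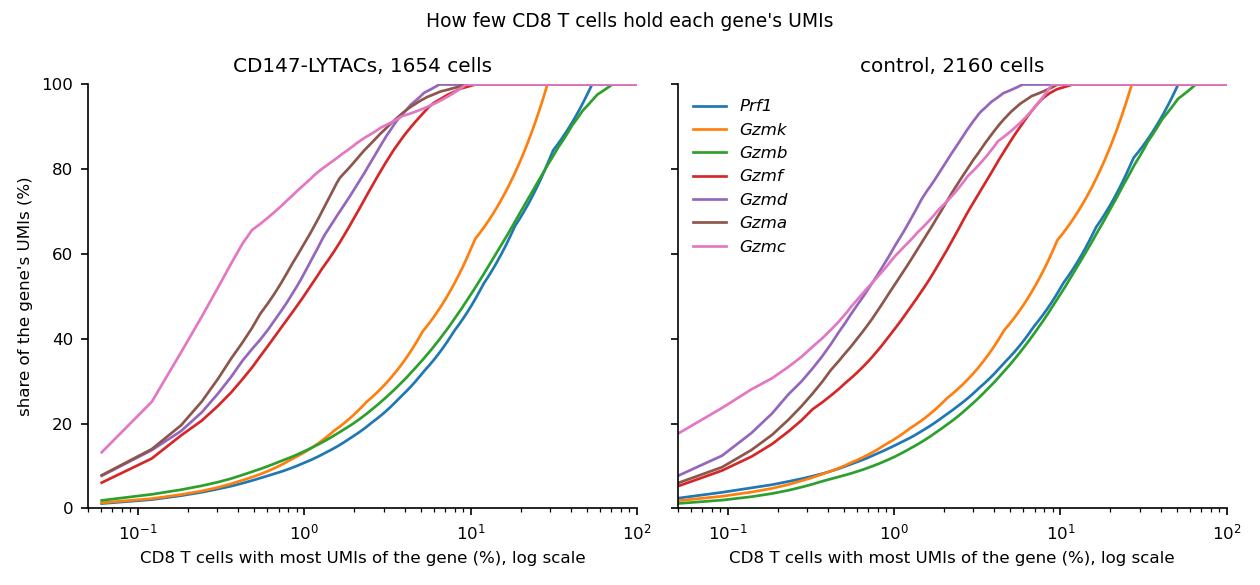
Cumulative share of each gene's UMIs (%, vertical) held by the CD8 T cells richest in it (%, horizontal log scale), CD147-LYTACs left and control right. Gzmf reaches 100% at 10.6% and 11.8% of cells and Gzmb at 70.7% and 65.0%, with Gzmc, Gzma and Gzmd rising at the left beside Gzmf.

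Granzymes were combined in the same CD8 T cell in a recurring way. Among cells with at least 1000 UMIs, 84.1% of the Gzmd-positive cells in the CD147-LYTACs library and 78.1% in the control library also had Gzme, against 2.52% and 2.61% of cells without Gzmd. Gzmf was found in 56.1% and 57.8% of Gzmd-positive cells, against 7.44% and 8.86% of the others, and in 38.1% and 48.4% of Gzmc-positive cells, against 7.74% and 8.19%. Shared sequence cannot be told apart from joint presence for Gzmd with Gzme or for Gzmd with Gzmf. Gzmd had 70 pieces of 60 bases in common with Gzme and 20 with Gzmf. Gzmc and Gzmf had no 60-base piece in common, at 72.4% identity. Gzmk was found in 44.8% and 49.5% of Gzma-positive cells, against 27.3% and 24.4% of the others, and Gzmb in 82.5% and 71.6%, against 69.6% and 64.3%. Of the chromosome 14 genes beside Gzmb, Gzmd was found in 3.25% and 0.962% of Gzma-positive cells, against 6.80% and 6.46% of the others. For Gzmf these shares were 9.09% and 7.21%, against 10.7% and 12.3%, and for Gzmc 8.44% and 8.17%, against 9.47% and 8.97%. These shares were not adjusted for the depth of each cell.

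Taking CD8 T cells with at least 5 UMIs as rich, 71 cells in the CD147-LYTACs library and 97 in the control library were rich in Gzma, and 145 and 215 were rich in the sum of Gzmd to Gzmg. Of the Gzma-rich cells, 4 (5.63%) and 1 (1.03%) were also rich in Gzmd to Gzmg, as were 8.77% and 9.95% of all CD8 T cells. Also rich in Gzmc were 4 (5.63%) and 1 (1.03%) of the Gzma-rich cells, beside 2.06% and 1.39% of all CD8 T cells. That share was above the share of the gate in the CD147-LYTACs library and below it in the control library. Gzma stood at 160 and 12.7 CPM in Gzmd to Gzmg-rich cells and at 442 and 134 CPM in Gzmc-rich cells, beside 189 and 128 CPM over the gate. Of the 34 and 30 cells rich in Gzmc, 23 and 21 were also rich in Gzmd to Gzmg. The Gzmc-rich cells were deep, with medians of 14227 and 15678 UMIs, against 6866.5 and 6834.5 over the gate. Cycling cells made up 41.2% and 40% of them, against 15.4% and 9.03% of the gate. The limit of 5 UMIs was not adjusted for depth. Together these rich cells held 94.9% and 91.8% of Gzma UMIs and 96.7% and 97.0% of Gzmf UMIs of the gate, but only 37.3% and 38.8% of Gzmb UMIs.

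**Figure D4:**
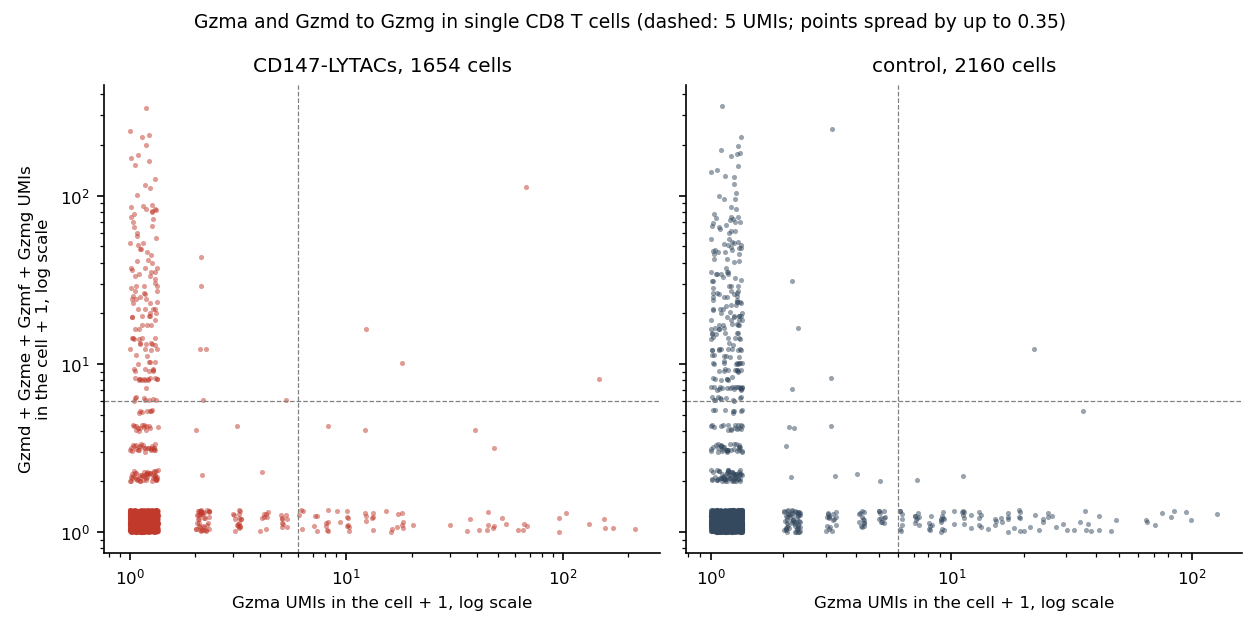
Gzma UMIs (horizontal) against the summed Gzmd, Gzme, Gzmf and Gzmg UMIs (vertical) in single CD8 T cells, each plus 1 on log scales, CD147-LYTACs left and control right; dashed lines mark 5 UMIs. Cells rich on both axes number 4 and 1.

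The rich cells were chosen on these genes, so the following levels describe them only. Gzmb itself stood at 1276 and 628 CPM in Gzma-rich cells and at 1516 and 1323 CPM in Gzmd to Gzmg-rich cells. Ccl5, a chemokine of effector and memory T cells, was at 4188 and 4872 CPM in Gzma-rich cells, against 1680 and 1745 CPM in Gzmd to Gzmg-rich cells. Havcr2 (TIM-3) was at 252 and 193 CPM against 372 and 450 CPM, and Prf1 at 115 and 89.0 CPM against 243 and 314 CPM. The CD8 T cells without any member UMI, 236 and 311 cells, had the most Tcf7, a factor of naive and stem-like T cells, at 120 and 136 CPM, against at most 43.3 CPM in the rich sets. Of the 5 NK markers 4 had UMIs in Gzma-rich cells of each library, with Klrb1c at 0 in the CD147-LYTACs library and Ncr1 at 0 in the control library. They summed to 191 and 188 CPM there and to 162 and 128 CPM in the other CD8 T cells, with 127 of 138 and 113 of 152 UMIs in Gzma-rich cells from Klre1 and 32 in control cells from Klra4. The 12 monocyte or macrophage markers, 9 and 8 of them with UMIs, summed to 821 and 954 CPM in Gzma-rich cells and 449 and 500 CPM in the other CD8 T cells, led by Ly6c2 and Ccr2; the part of either in the Gzma level was not tested.

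Granzymes also differed between states of CD8 T cells, set by markers other than the members. Cycling cells made up 15.4% of CD8 T cells in the CD147-LYTACs library and 9.03% in the control library, cells with Pdcd1 (PD-1) and Havcr2 but no cycling signature 45.9% and 47.7%, and cells with Tcf7 and Pdcd1 without Havcr2 3.75% and 2.92%. A further 34.9% and 40.3% were in none of these states. Prf1 was at 218 and 230 CPM in Pdcd1 Havcr2 cells, against 23.2 and 21.7 CPM in Tcf7 Pdcd1 cells. Gzmb was at 755 and 688 CPM, against 154 and 74.8 CPM. Gzmk varied less across these 3 states, from 38.01 to 69.2 CPM in the CD147-LYTACs library and from 39.4 to 74.3 CPM in the control library. So Prf1 and Gzmb were most abundant where Pdcd1 and Havcr2 were both detected, and Gzmk was not.

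The log2 ratios between the libraries were also taken within each state. In cycling cells Gzmb stood at 588 CPM in the CD147-LYTACs library and 323 CPM in control cells (log2 ratio 0.86, 0.76 to 0.96), and in Pdcd1 Havcr2 cells the log2 ratio was 0.14 (0.08 to 0.19). In Tcf7 Pdcd1 cells it was 1.04 (0.46 to 1.65) and in cells of none of the 3 states 0.51 (0.42 to 0.61). Gzma had log2 ratios of 1.25 in cycling and 1.08 in Pdcd1 Havcr2 cells, -0.10 (-1.04 to 0.83) in Tcf7 Pdcd1 cells and -0.38 (-0.52 to -0.24) in cells of none of the states. So the summed Gzma level was higher in the treated library in cycling and Pdcd1 Havcr2 cells and lower in the cells outside the states. Gzmf was at 237 CPM in Pdcd1 Havcr2 cells of the CD147-LYTACs library and 369 CPM in those of the control library (-0.64, -0.73 to -0.55). In cycling cells it was at 248.9 and 181.9 CPM (0.45, 0.31 to 0.59), and in cells of none of the states at 174 and 88.3 CPM (0.98, 0.80 to 1.16). In Tcf7 Pdcd1 cells it had 33 and 2 UMIs. Gzmd and Gzme, like Gzmf, were lower in Pdcd1 Havcr2 cells of the treated library (-0.55 and -0.16) and higher in its cells of none of the states (1.08 and 1.44). After thinning, Gzmb was found in 31.8% and 17.4% of cycling cells and in 42.2% and 36.7% of Pdcd1 Havcr2 cells. In Tcf7 Pdcd1 cells its shares were 11.3% and 11.1%. Thinned Gzma shares were 5.88% and 3.59% of cycling cells, 3.42% and 2.23% of Pdcd1 Havcr2 cells and 5.38% and 8.62% outside the states. The Gzma intervals overlapped in each. Thinned Gzmf shares were 7.11% and 11.3% of Pdcd1 Havcr2 cells, without overlap, and 3.99% and 3.68% outside the states, with overlap. The difference between states was not tested.

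**Figure D5:**
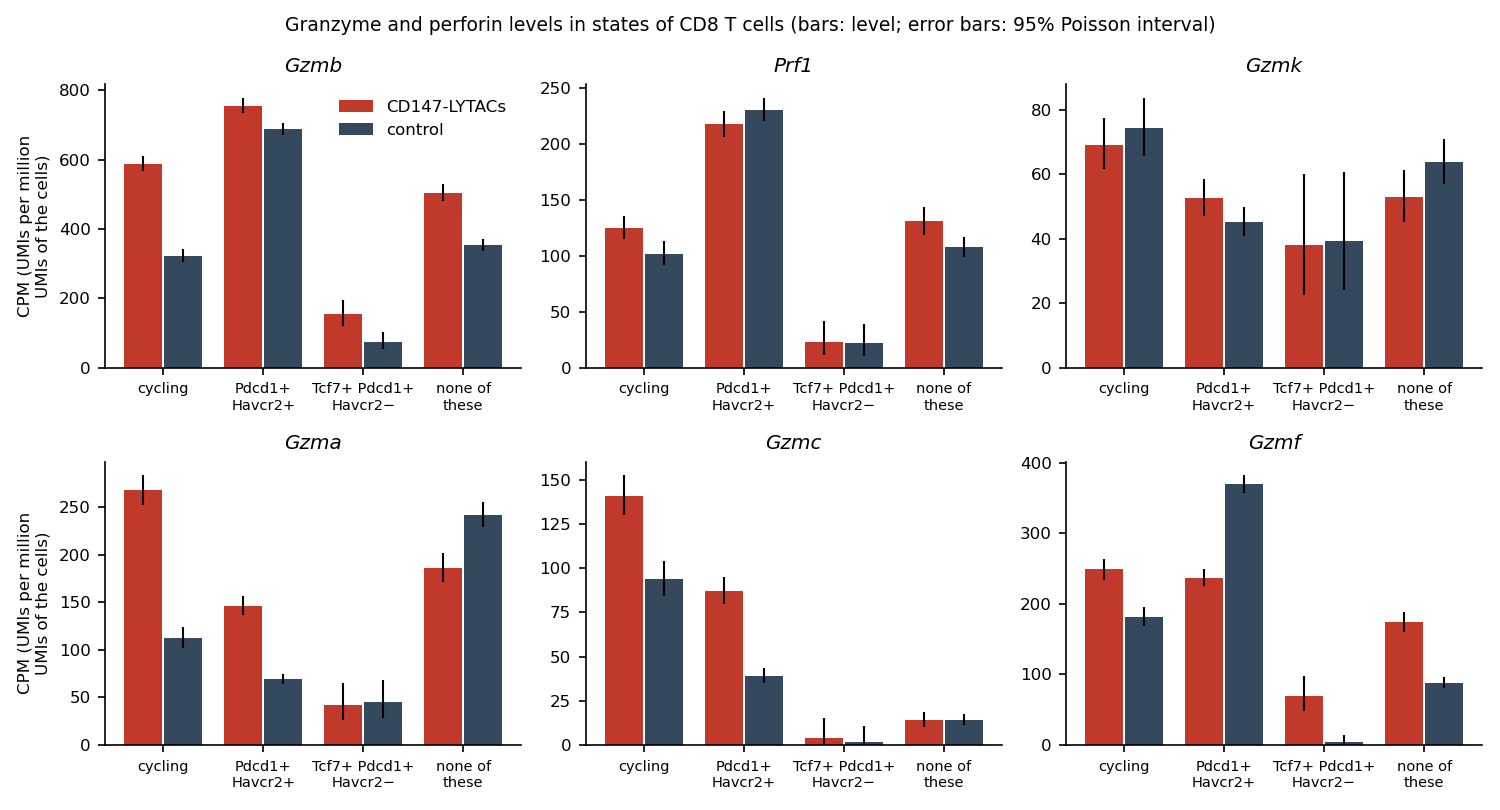
Level of 6 genes in CPM (bars, with 95% Poisson intervals) in 3 marker-defined states of CD8 T cells and in the cells of none of them, CD147-LYTACs left of control in each pair. Gzmb and Prf1 are highest in Pdcd1+ Havcr2+ cells, and Gzmf is lower in those of the CD147-LYTACs library and higher in its cells of none of the states.

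NK cells carried Gzma, Gzmb and Prf1 in most cells and little else. Gzma was found in 91.4% of NK cells in the CD147-LYTACs library and 91.2% of control NK cells and had 1071 and 1537 UMIs (log2 ratio -0.23, -0.35 to -0.12). Gzmb had 129 and 165 UMIs (-0.07, -0.41 to 0.27). Prf1 was lower, with 119 UMIs and 424 CPM in the CD147-LYTACs library against 217 UMIs and 633 CPM in control NK cells, a log2 ratio of -0.58 (-0.91 to -0.25) that stops short of 1.5-fold. None of the 3 measured members was past the threshold, which 2.37% of the 1224 measured genes passed higher and 6.13% lower. Averaged over cells instead of over UMIs, the log2 ratio of Gzma was 0.03, and that of Prf1 passed the threshold. Gzmc had 13 and 84 UMIs, in 6 cells of each library, 41 of them in 1 control cell. Gzmd and Gzmg had no UMI in NK cells of either library.

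In Foxp3-positive T cells Gzmb was the sole member with at least 100 UMIs. It had 200 UMIs and 351 CPM in the CD147-LYTACs library and 163 UMIs and 240 CPM in control cells (log2 ratio 0.55, 0.24 to 0.86). It was found in 51.6% (38.6 to 64.5) and 54.2% (42.9 to 65.2) of cells, and in 24.2% and 15.7% after thinning, with overlapping intervals. It was not past the threshold, which 3.69% of 2550 genes passed higher and 6.78% lower. Prf1 had 6 UMIs in each library, against 200 and 163 of Gzmb. Of 38 Gzma UMIs in the CD147-LYTACs library 37 were in 1 cell, and the control library had none, 0 of 83 cells, which allows up to 3.61% of cells with a UMI. Gzmd, Gzme, Gzmg and Gzmk had no UMI in either library.

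CD4 T cells without Foxp3 carried granzymes in few cells. Gzmc had 131 UMIs in 14 cells of the CD147-LYTACs library and 571 UMIs in 34 control cells, a log2 ratio of -1.49 (-1.77 to -1.21). Gzme had 98 UMIs in 10 cells and 34 UMIs in 8 cells (2.17, 1.59 to 2.77), and Gzmf 78 UMIs in 6 cells and 76 UMIs in 10 cells (0.68, 0.20 to 1.15). Gzmb had 60 and 75 UMIs (0.32, -0.20 to 0.83). Of these 4 measured members, Gzme and Gzmf were past 1.5-fold higher and Gzmc lower, where 1.88% of 5272 genes were higher and 3.21% lower. The 3 richest cells held 75.1% of the Gzmd to Gzmg UMIs in the CD147-LYTACs library and 79.3% in the control library. Gzmf turned to -0.15 when averaged over cells. Without the 1% of cells richest in each gene Gzmc was at -1.28 and Gzme at 3.51. Below the limit of 100 UMIs, Gzmd had 61 UMIs in 5 cells of the CD147-LYTACs library and 25 in 5 control cells, and Gzma had 1 UMI against 56 in 9 control cells. NK markers in the gate summed to 46.5 and 15.2 CPM, with all 65 UMIs of the CD147-LYTACs library and 32 of 33 of the control library from Klre1 and none from Ncr1, Klrb1c or Klra8.

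Mast cells shared Gzmb with lymphocytes, and no UMI of the other members was found in them. In the mast or basophil gate Gzmb had 172 UMIs in 8 of 20 cells of the CD147-LYTACs library and 115 UMIs in 7 of 13 cells of the control library. The other 9 members had no UMI among the 138469 and 77448 UMIs of the gate. These are too few to detect levels as low as those of Gzmg and Gzmm in CD8 T cells. The gate carried the mast cell proteases Cma1 (28324 and 19420 CPM) and Mcpt4 (21962 and 18619 CPM), which belong to the same gene region as Gzmb, and Kit in 19 and 12 cells. The basophil protease Mcpt8 had 23 UMIs, in 2 cells of the CD147-LYTACs library, and none in the control library. In the 4 lymphocyte gates none of the 8 listed neighbours of Gzmb (Gzmn, Ctsg, Cma1, Mcpt1, Mcpt2, Mcpt4, Mcpt8 and Mcpt9) reached 100 UMIs.

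Gzmm stood out in hepatoma cells. It was at 2.49 CPM (2.18 to 2.84) in the 1883 hepatoma cells of the CD147-LYTACs library and 2.15 CPM (1.86 to 2.48) in the 1730 of the control library, from 230 and 194 UMIs. That was 60.2% and 51.1% of its CD8 T cell level. The other 9 members were at 0.103% to 0.455% of their CD8 T cell level in the CD147-LYTACs library and 0% to 0.434% in the control library. For each 100 Gzmb UMIs there were 299 and 359 Gzmm UMIs in hepatoma cells, against 0.660 and 0.845 in CD8 T cells. The same figures were 31.2 and 40.7 against 9.12 and 11.3 for Gzmk, and 26.0 and 37.0 against 26.0 and 32.6 for Prf1. The source of the member UMIs in hepatoma cells was not tested. Gzmm was found in 9.72% and 8.55% of these deep cells, and in 0% and 0.0579% after thinning. Bsg, on the same strand downstream of Gzmm, was at 1018 and 1001 CPM in hepatoma cells; reads running from one gene to the other were not analysed here.

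Genes that activate, store, release or block granzymes mostly differed by less than 1.5-fold between the libraries in CD8 T cells. Over all genes measured in that gate 2.37% were past 1.5-fold higher and 1.09% lower. Of 7 genes of activation and storage 1 was past 1.5-fold, Ctsh, with 88 UMIs in the CD147-LYTACs library and 31 in the control library, and the hepatoma gate had 165 and 136 CPM of it. Ctsc, which removes the dipeptide that keeps granzymes inactive, was at 84.7 and 92.2 CPM, and Srgn, the proteoglycan that packs them, at 1573 and 1539 CPM. Nkg7, a granule membrane protein needed for killing, was at 1179 and 948 CPM (log2 ratio 0.31). None of 9 measured genes of granule release and none of 9 transcription factors was past the threshold, with Tbx21 at 84.6 and 87.0 CPM and Eomes at 34.0 and 29.9 CPM. Among 6 serpins, Serpinb9, the inhibitor of granzyme B, was at 302 and 360 CPM (-0.26). Serpinb6b, an inhibitor of granzyme A, was at 279 and 277 CPM. Serpinb9b was lower in the treated library, at 77.0 and 112 CPM (-0.55, -0.65 to -0.44), just short of 1.5-fold. Serpina3f was past the threshold, with 72 and 45 UMIs.

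The 9 death ligands and cytokines had the highest list median in CD8 T cells, 0.37 on the log2 scale against -0.03 over all measured genes. Tnf (log2 ratio 0.62), Ccl3 (0.83) and Ccl4 (0.59) were past 1.5-fold higher and Lta (-1.03) lower, beside 2.37% and 1.09% of all measured genes. In hepatoma cells the same 3 RNAs had log2 ratios of 1.79, 3.38 and 2.73, at up to 8.33 CPM in the CD147-LYTACs library; the part of free RNA in the CD8 values was not tested. Ifng, interferon gamma, was at 286 and 222 CPM (0.37) and Fasl at 77.7 and 84.8 CPM (-0.13).

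In CD4 T cells, 3 of 5 measured genes of activation and storage were past 1.5-fold higher: Nkg7 (638 and 349 CPM), Ctsc (94.4 and 56.1 CPM) and Cst7 (101 and 51.0 CPM). The serpins Serpinb9b (147 and 63.4 CPM) and Serpinb6b (384 and 244 CPM), 2 of 4, and the cytokines Tnf (47.2 and 29.9 CPM) and Ccl5 (187 and 101 CPM), 2 of 7, were also higher. None of 6 release genes and none of 8 transcription factors was past the threshold, and no listed gene with at least 100 UMIs was lower. Over all genes measured in the gate 1.88% were past it higher and 3.21% lower. Serpinb9 was at 315 and 232 CPM, Ifng at 321 and 383 CPM, Fasl at 44.3 and 54.2 CPM, Tbx21 at 77.2 and 81.8 CPM and Srgn at 2094 and 2106 CPM, and Eomes had 4 and 12 UMIs.

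Foxp3-positive T cells had less Nkg7 (205 and 337 CPM) and more Lamp2 (147 and 92.6 CPM) among 3 measured genes of activation and storage, and less Prdm1 (102 and 176 CPM) and more Batf (221 and 107 CPM) among 6 transcription factors. Stx11 (365 and 231 CPM), 1 of 4 release genes, and Ccl4 (166 and 49.99 CPM), 1 of 2 cytokines, were higher, and neither of 2 serpins was past the threshold. Over all genes measured in this gate 3.69% were past it higher and 6.78% lower. Srgn was at 3323 and 2730 CPM, and Ctsc, Serpinb9, Serpinb6b, Tbx21, Fasl and Ifng each had under 100 UMIs in either library, as Eomes had none. NK cells had less Ifng (228 and 344 CPM) and Ccl3 (296 and 464 CPM) and more Xcl1 (499 and 266 CPM) among 5 measured cytokines. Over all genes measured in NK cells 2.37% were past the threshold higher and 6.13% lower. No other list had a gene past the threshold there, and Serpinb9 was at 499 and 450 CPM, Nkg7 at 808 and 902 CPM Tbx21 at 150 and 149 CPM, Serpinb6b at 670 and 738 CPM and Srgn at 2536 and 2215 CPM. None of the 12 substrates and death genes in hepatoma cells was past it, with a list median of 0.06; H2-D1, a class I molecule read by CD8 T cells, was at 1605 and 1449 CPM.

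The genes whose levels most resembled a member's were sought over 24 points, 12 gated cell types in 2 libraries, by Pearson r of log2(CPM + 1). Points from 1 library share its depth and free RNA, so r is a description. For Gzma they were Eomes (r = 0.93), Samd3 (0.91) and Prf1 (0.89), and for Prf1 they were Sidt1 (0.94), Eomes (0.91) and Gzma (0.89). For Gzmb they were Ctla2a (0.91), Sytl3 (0.90) and Tnfsf10 (0.89), and for Gzmk Ppp2r2c (0.92), Cd160 (0.91) and Apol7e (0.91).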

How the data were processed

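Gene by barcode matrices hold raw UMI counts, as deposited, with no normalization. The submitters' processing notes name Cell Ranger 3.0.2 and mm10, and the file headers name Cell Ranger 7.1.0; the sources used here do not state the annotation release, the transcript end read or strand use. The members and gene lists were chosen with earlier results of these data known. Another CD8 T cell state set by markers is not reported here. The text names all members, list genes past 1.5-fold with at least 100 UMIs, 9 fixed pathway genes and the 3 genes nearest in pattern.

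Barcodes with at least 500 UMIs, 300 genes and at most 15% mitochondrial UMIs were kept. Those with the highest Scrublet scores (scanpy 1.11.5) were removed at 0.8% per 1000 barcodes, 535 in the CD147-LYTACs library and 402 in the control library. T cells needed 2 Cd3 UMIs and no other lineage, CD8 T cells 2 Cd8 UMIs and no Cd4, CD4 or Foxp3-positive T cells 1 UMI of that gene and no Cd8, and NK cells 3 UMIs over at least 2 of 5 NK markers and at most 1 Cd3 UMI. These thresholds were set after seeing the counts and used no member. No gate took 24.7% and 28.5% of cells, and 335 and 141 mixed T cells were set aside. Of the cells in no gate, 565 in the CD147-LYTACs library and 789 in the control library had at least 2 Cd3 UMIs. The mixed T cells held 3068 and 1531 UMIs of the 10 members.

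UMIs were summed per library and gate, with exact Poisson intervals for CPM and exact conditional binomial intervals for ratios (scipy 1.17.1); cells are not replicates. A call required 1.5-fold, an interval excluding no difference and 100 UMIs over both libraries. The calculation was tested on simulated Poisson counts, the model that the intervals assume. The simulation lacks the concentration of UMIs in few cells seen for Gzmc and Gzma. Positions are from GENCODE M21 (GRCm38), which held 99.8% of the gene identifiers.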

Additional observations from a re-analysis of the deposited data

Results flagged for a closer look

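Among values resting on at least 100 UMIs, 3 members had opposite signs of the log2 ratio of CPM, CD147-LYTACs over control, in 2 cell types. Their intervals lay on either side of no difference. The difference between cell types was not tested, since each group is 1 library. Gzma was at 0.57 in CD8 T cells and -0.23 in NK cells, where it was at 0.03 as a mean over cells. Gzmc was at 1.00 in CD8 T cells and -1.49 in CD4 T cells. Gzmf was at -0.12 in CD8 T cells and 0.68 in CD4 T cells, where its UMIs were in 6 cells of the CD147-LYTACs library and 10 of the control library. Under 100 UMIs, further values lay opposite to CD8 T cells, with intervals excluding no difference. These were Gzmd in CD4 T cells (1.92, against -0.18), Gzmc in NK cells (-2.40) and Gzma in CD4 T cells (-5.17).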

How the results depend on the processing

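The counts of members past 1.5-fold were 2 in CD8 T, 3 in CD4 T, 0 in Foxp3-positive T and 0 in NK cells. In CD8 T cells thinning to 1000 UMIs gave 1 (Gzmc), and leaving out the 1% of cells richest in each member, chosen after seeing the data, gave 0. Gzma was past the threshold there under median ratio scaling (0.60), without mitochondrial and ribosomal genes (0.61) and under a stricter gate (0.66), where Gzmg was not (0.38). The Gzma log2 ratio was lower as a mean over cells (0.44), thinned (0.40) and without the richest cells (0.21). Counting members under 100 UMIs gave 5 in CD4 T cells, 1 in Foxp3-positive T cells (Gzma) and 1 in NK cells (Gzmc). In Foxp3-positive T cells the mean over cells, a total without mitochondrial and ribosomal genes, and thinning each gave 1 (Gzmb). In NK cells the mean over cells, median ratio scaling, keeping doublets, and leaving out the richest cells each gave 1 (Prf1). In CD4 T cells Gzmb was past it as a mean over cells (0.63), under a strict filter (0.60) and thinned (1.41), and Gzmf was not past it as a mean over cells, thinned or without the richest cells (0.51). Among members whose reported interval excluded no difference, the sign turned for Gzmd in CD8 T cells without the richest cells (0.023), Gzme in CD8 T cells under a stricter gate (-0.014), Gzmf in CD4 T cells as a mean over cells (-0.15) and thinned (-0.57), and Gzma in NK cells as a mean over cells (0.028). The cause of these changes was not tested. Of 226 recomputed values for single members, 194 lay within the counting interval of the value reported, 27 lay outside it and 5 turned as above. A further 10 sign changes, counted among the others, were in members whose reported interval included no difference (Gzmk, Gzmm and Prf1). Median ratio scaling shifted the median gene by -0.04 to 0.07 on the log2 scale. No paired analysis was possible because each group is 1 library with no replicate numbers. Gates of 57 to 83 cells limit what could be detected in NK and Foxp3-positive T cells.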
